A study of Homo sapiens with 8 samples.

Results

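Ephrins are ligands held at the cell surface, and Eph receptors are the receptor tyrosine kinases that bind them on a touching cell. Described here are the 7 genes of the family that carried a symbol in the array table used here, the A-type ligands EFNA1, EFNA3 and EFNA4, the B-type ligand EFNB2 and the A-type receptors EPHA2, EPHA8 and EPHA10. They were chosen by gene symbol alone, and each was measured by 1 transcript cluster, the array's probe group for a gene, making up 7 of 16377 clusters and 7 of 4072 named genes. RNA came from LNCaP, a human prostate tumor cell line with a luminal character. Its cells were transduced with lentivirus carrying HIST1H1A, a linker histone gene, or a control vector, and single-cell clones were then isolated and grown. The groups were 4 control clones, numbered 3, 4, 8 and 9, and 4 HIST1H1A clones, numbered 2, 8, 9 and 10, with 1 Affymetrix Human Gene 2.0 ST array for each clone. The question was which transcripts differed with HIST1H1A over-expression. No promoter driving the vector is named in the sources used here, and all clones passed through transduction, blasticidin selection and clonal growth.

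Ephrin-A ligands are tethered to the membrane by a lipid anchor, whereas ephrin-B ligands span it and have a tail inside the cell. Binding signals into both cells, forward through the receptor kinase and in reverse through the ligand, and often makes the cells repel each other, as in axon guidance and the sorting of tissue boundaries. In epithelia the A-type ligands and EPHA2 take part in contact inhibition, and ephrin-B2 is best known as a marker of arteries.

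EFNA4, EFNA3 and EFNA1 lie in this order on the plus strand at 1q22 in the RefSeq annotation of GRCh38.p14, EFNB2 lies on chromosome 13, and the 3 receptor genes lie elsewhere on chromosome 1. The table also lists read-through genes that join ADAM15 to EFNA4 and EFNA4 to EFNA3. The positions of the array's probes were not checked, so signal from a joined transcript could not be told from that of a single gene. The 250 bases before the start of the 4 ligand genes are shown, because the 3 neighbouring ligands had lower means in HIST1H1A clones and EFNB2 a higher one. They are chr1:155063490-155063739 for EFNA4, chr1:155078587-155078836 for EFNA3, chr1:155127626-155127875 for EFNA1 and, on the minus strand, chr13:106535663-106535912 for EFNB2. Each runs 5′ to 3′ along its gene, and capitals mark GGGCGG (the GC box) or CAGGTG (an E-box) on either strand.
EFNA4: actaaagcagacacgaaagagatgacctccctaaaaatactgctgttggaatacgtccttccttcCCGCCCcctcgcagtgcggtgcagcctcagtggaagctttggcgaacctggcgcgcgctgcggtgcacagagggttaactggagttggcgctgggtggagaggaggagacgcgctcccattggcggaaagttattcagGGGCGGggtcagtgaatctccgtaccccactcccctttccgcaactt
EFNA3: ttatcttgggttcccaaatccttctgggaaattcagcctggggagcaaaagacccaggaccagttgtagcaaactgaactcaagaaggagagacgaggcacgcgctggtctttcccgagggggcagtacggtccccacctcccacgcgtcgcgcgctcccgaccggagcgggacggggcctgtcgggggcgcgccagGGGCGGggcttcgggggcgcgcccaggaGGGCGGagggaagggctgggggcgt
EFNA1: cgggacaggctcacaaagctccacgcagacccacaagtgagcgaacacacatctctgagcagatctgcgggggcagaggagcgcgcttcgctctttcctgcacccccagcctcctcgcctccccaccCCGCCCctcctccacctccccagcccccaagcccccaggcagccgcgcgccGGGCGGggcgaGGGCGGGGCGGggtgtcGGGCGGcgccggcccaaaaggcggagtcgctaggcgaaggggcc
EFNB2: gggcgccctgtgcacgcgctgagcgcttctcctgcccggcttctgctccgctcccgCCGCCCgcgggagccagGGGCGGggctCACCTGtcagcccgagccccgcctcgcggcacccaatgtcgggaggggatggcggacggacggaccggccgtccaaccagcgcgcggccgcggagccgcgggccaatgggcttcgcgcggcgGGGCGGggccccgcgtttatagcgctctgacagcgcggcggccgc
EFNA1 held GGGCGG 5 times, EFNA3 and EFNA4 2 times each and EFNB2 3 times, against 42.6% of 35116 promoters of the same length that hold it at all. Neighbouring copies of it can share bases, as in EFNA1. CAGGTG stood 1 time in EFNB2 and in none of the A-type ligands, and 17.5% of promoters hold it. TATAAA, searched on both strands, stood 1 time in EFNB2 and in none of the A-type ligands, against 10.7% of promoters. EFNB2 had 40 CpG pairs and a GC content of 78.4%, and 97.8% of promoters had fewer CpG pairs. EFNA1 had 24, EFNA3 23 and EFNA4 17, where the median promoter had 11. A promoter entry was found for 6 of the 7 genes, all but EPHA10. The receptor promoters, not shown, shared some of these traits. EPHA8 had 42 CpG pairs and a GC content of 83.2%, both above EFNB2, and 98.6% of promoters had fewer CpG pairs. EPHA2 had 15 CpG pairs. GGGCGG stood 2 times in EPHA8 and 1 time in EPHA2, and neither held CAGGTG or TATAAA. These letters are a description of the sequence and show no binding.

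EFNA1 and EFNA4, which encode the lipid-anchored ligands ephrin-A1 and ephrin-A4, fell in HIST1H1A clones, 3.27-fold and 2.77-fold. EFNA3 was lower by 2.36-fold and EFNB2 higher by 4.33-fold, and neither passed the test. The receptors differed by 1.21-fold to 1.27-fold, and none passed. A gene is said to have risen or fallen where limma's adjusted p, over all 16377 clusters, was under 0.05. By that rule 2 of the 7 genes fell and 0 rose, where over all clusters 2.02% fell and 3.77% rose (5.79% in all). Among the 4247 clusters with a symbol 3.72% fell and 8.45% rose. Both that fell also passed a fold of 2, as did 1.38% of all clusters downward and 2.39% upward. The median log2 difference was -0.35 over the 7 genes and -0.01 over all clusters.

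**Figure D1:**
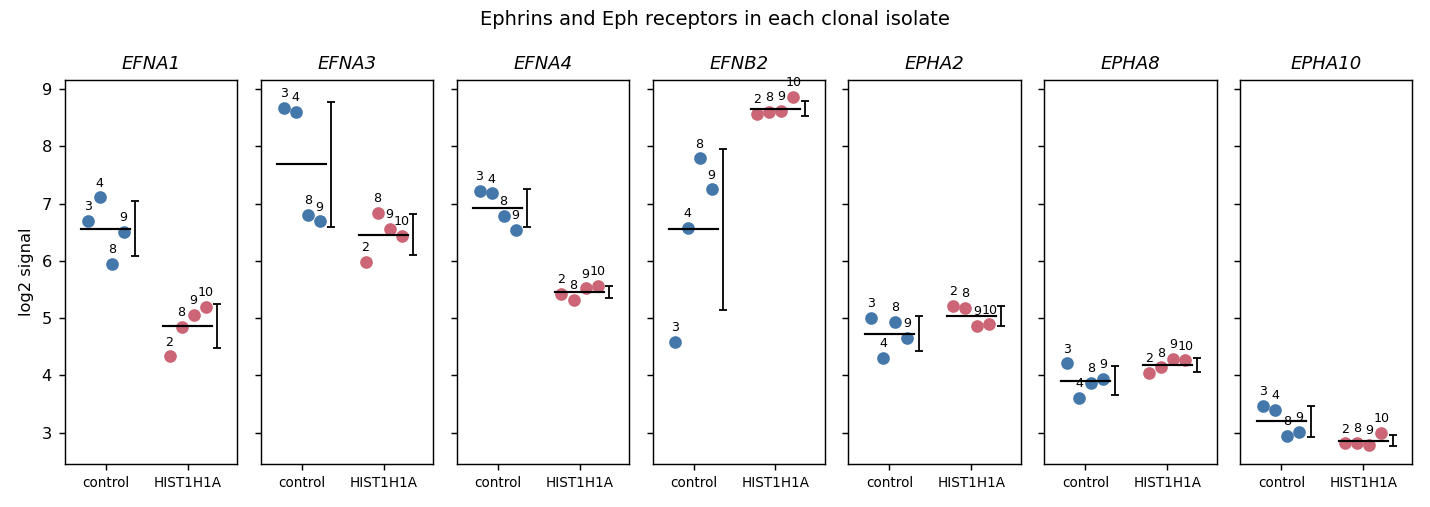
Log2 signal (vertical axis) of the 7 genes, 1 panel each, in 4 control and 4 HIST1H1A clones, with each point numbered by its clone, lines at the group means and bars of 1 SD. EFNA1 and EFNA4 are lower in every HIST1H1A clone than in every control clone, EFNB2 is higher in every one, and EFNA3 is split among control clones.

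EFNA1 had a log2 signal of 6.70, 7.11, 5.95 and 6.50 in control clones 3, 4, 8 and 9, and of 4.33, 4.85, 5.05 and 5.19 in HIST1H1A clones 2, 8, 9 and 10. All HIST1H1A clones lay below all control clones, with a gap of 0.76 between the groups. The mean was 6.56 ± 0.48 in control and 4.86 ± 0.38 in HIST1H1A clones (SD, n = 4 each). EFNA1 thus fell by 1.71 on the log2 scale, with a 95% interval of -2.33 to -1.09 and an adjusted p of 0.00713 from limma (standard error 0.272). The exact permutation test over the 8 clones gave a two-sided p of 0.0286, the smallest that 70 splits allow. The call held in all 15 settings that kept at least 7 arrays and tested against no change, and leaving out single clones gave folds of 2.88 to 3.76.

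EFNA4 had a log2 signal of 7.22, 7.18, 6.78 and 6.54 in control clones 3, 4, 8 and 9, and of 5.43, 5.32, 5.52 and 5.57 in HIST1H1A clones 2, 8, 9 and 10. The groups did not overlap, with a gap of 0.97, and the HIST1H1A clones lay within 0.25 of each other. The mean was 6.93 ± 0.33 in control and 5.46 ± 0.11 in HIST1H1A clones (SD, n = 4 each). EFNA4 thus fell by 1.47 on the log2 scale, with a 95% interval of -1.86 to -1.08 and an adjusted p of 0.00145 from limma (standard error 0.170). The exact permutation p was again 0.0286. Its call held in all 15 settings, with folds of 2.59 to 3.03 without single clones.

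EFNA3, which encodes ephrin-A3, had a log2 signal of 8.67 and 8.60 in control clones 3 and 4 but of 6.81 and 6.69 in control clones 8 and 9. Its signal was 5.98, 6.84, 6.56 and 6.44 in HIST1H1A clones 2, 8, 9 and 10. Control clones 8 and 9 thus lay within the range of the HIST1H1A clones, and the groups overlapped. The control SD of 1.09 was larger than that of 97.8% of all clusters. The means were 7.69 ± 1.09 and 6.46 ± 0.36 (SD, n = 4 each), a log2 fold change of -1.24 with a 95% interval of -2.34 to -0.13, which did not pass (adjusted p = 0.254 from limma, exact permutation p = 0.0857). Between the clones numbered 8 and 9 alone, the log2 difference was -0.05.

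That EFNA1 and EFNA4 passed and EFNA3 did not is no test of a difference between them, so the differences between the 3 ligands within each array were compared between the groups. The log2 signal of EFNA1 minus that of EFNA3 was -1.13 ± 0.77 in control and -1.60 ± 0.31 in HIST1H1A clones (SD, n = 4 each, exact permutation p = 0.286). The difference between groups was -0.47, with a 97.1% exact interval of -1.80 to 0.72. For EFNA4 minus EFNA3 it was -0.23 (interval -1.48 to 0.90, exact permutation p = 0.6), and for EFNA1 minus EFNA4 -0.24 (interval -1.06 to 0.45, exact permutation p = 0.457). None of the 3 pairs passed, with a Benjamini-Hochberg p of 0.6 for each. The 3 intervals reach beyond a fold of 2 downward and none reaches it upward. Unequal changes of that size downward thus cannot be left out with these arrays.

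EFNB2, the membrane-spanning ligand ephrin-B2, had a log2 signal of 4.58, 6.57, 7.79 and 7.25 in control clones 3, 4, 8 and 9, and of 8.57, 8.60, 8.62 and 8.86 in HIST1H1A clones 2, 8, 9 and 10. Every HIST1H1A clone lay above every control clone, with a gap of 0.78. The control clones covered a range of 3.21 and the HIST1H1A clones one of 0.29. The control SD of 1.40 was larger than that of 99.4% of clusters, and the HIST1H1A SD of 0.13 larger than that of 26.4%. The means of 6.55 and 8.66 differed by 2.11 on the log2 scale, with a 95% interval of 0.76 to 3.47. This did not pass (adjusted p = 0.0895 from limma), and the exact permutation p was 0.0286. The value depended on single clones. Without control clone 3 EFNB2 was 2.75-fold higher and passed (adjusted p = 0.0217), without control clone 8 it was 5.76-fold higher and passed (adjusted p = 0.0463), and without any other single clone it did not pass (adjusted p up to 0.213, all limma). Over all clusters, the groups did not overlap upward in 6.47% and downward in 4.62%, and among named clusters in 12.8% and 6.85%, against 1 and 2 of these 7 genes.

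**Figure D2:**
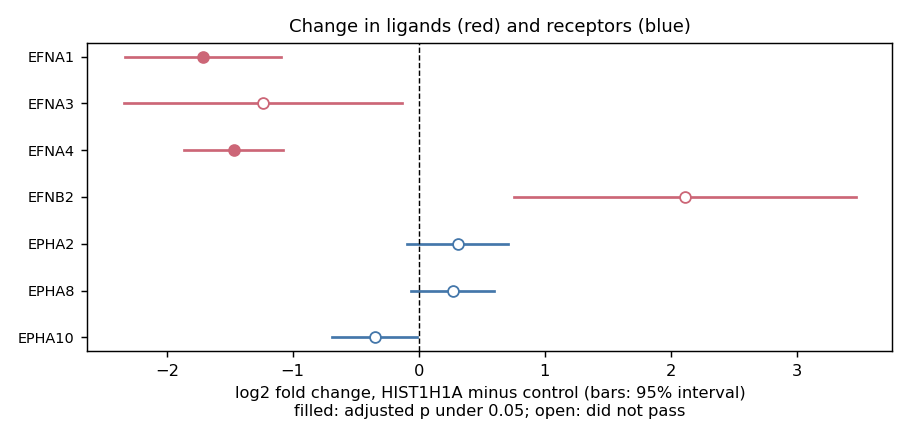
Log2 fold change of HIST1H1A minus control clones (horizontal axis) for the 4 ligands in red and the 3 receptors in blue, with limma's 95% intervals and filled points for an adjusted p under 0.05. The filled points are EFNA1 at -1.71 and EFNA4 at -1.47, and EFNB2 at 2.11 has an interval of 0.76 to 3.47.

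EPHA2, the main receptor of ephrin-A1 in epithelia, had a log2 signal of 5.01, 4.31, 4.93 and 4.65 in control clones 3, 4, 8 and 9, and of 5.21, 5.18, 4.86 and 4.89 in HIST1H1A clones 2, 8, 9 and 10. The groups overlapped, and HIST1H1A clones 2 and 8 lay above all control clones. The log2 fold change was 0.31 with a 95% interval of -0.09 to 0.71, which did not pass (adjusted p = 0.516 from limma, exact permutation p = 0.171). The interval leaves out a fold of 2 in either direction.

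EPHA8, an A-type receptor known from the developing nervous system, had a log2 signal of 4.21, 3.61, 3.87 and 3.94 in control clones 3, 4, 8 and 9, and of 4.04, 4.14, 4.29 and 4.26 in HIST1H1A clones 2, 8, 9 and 10. Control clone 3 lay among the HIST1H1A clones and the other control clones below them. The log2 fold change was 0.27 with a 95% interval of -0.06 to 0.60 (adjusted p = 0.467 from limma, exact permutation p = 0.0857).

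EPHA10, a receptor whose kinase domain lacks catalytic residues, had a log2 signal of 3.47, 3.39, 2.94 and 3.01 in control clones 3, 4, 8 and 9, and of 2.81, 2.82, 2.79 and 3.00 in HIST1H1A clones 2, 8, 9 and 10. Only HIST1H1A clone 10 reached into the control range. Both means, 3.20 and 2.86, were under the array-wide median of 3.27. With no background level to set them against, the log2 fold change of -0.35 rests on low signals (95% interval -0.69 to -0.01, adjusted p = 0.316 from limma, exact permutation p = 0.0571). In RNA of a whole culture, fewer cells that express a gene and less RNA per cell cannot be told apart, for these and all genes below.

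Control clones 3 and 4 stood apart from control clones 8 and 9 in 5 of the 7 genes, an order noticed after the values were seen. Both were above clones 8 and 9 in EFNA1, EFNA3, EFNA4 and EPHA10, and both were below them in EFNB2. The mean of clones 3 and 4 minus that of clones 8 and 9 was 1.88 in EFNA3, -1.95 in EFNB2 and between 0.45 and 0.68 in the other 3. Both clones of the first pair were above both of the second in 23.4% of all clusters and 28.3% of those with a symbol, and below them in 12.2% and 10.2%, so either order is common on these arrays. A difference of the pair means above 1 was found in 1.43% of all clusters and 0.659% of named ones, and one below -1, as in EFNB2, in 1.98% and 1.41%. The fall of EFNA1 and EFNA4 was seen against both pairs, since even control clones 8 and 9 lay above every HIST1H1A clone.

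The genes around the 3 neighbouring ligands did not fall as a block. Within 500 kb the RefSeq table lists 58 other genes, of which 26 were measured, and 2 fell, 2 rose and 22 did not pass. The 15.4% that passed compare with 12.2% of named clusters, and the median log2 fold change was 0.06. ZBTB7B, a zinc finger repressor known for CD4 T cell fate, lies 45.2 kb before EFNA4. Its log2 signal was 7.20, 6.85, 6.38 and 6.44 in control clones 3, 4, 8 and 9, and 4.79, 4.98, 5.35 and 4.67 in HIST1H1A clones 2, 8, 9 and 10. The groups did not overlap, and it fell 3.42-fold (adjusted p = 0.00205 from limma), in all 15 settings. The 3 measured genes that come next in order are DCST2, DCST1 and the antisense gene DCST1-AS1, which overlaps the ligand interval. They did not pass, at log2 fold changes of -0.10, 0.12 and -0.49. DCST2 and DCST1 had low control means of 4.02 and 4.04. With no background level to set them against, how far these 2 could fall is not known.

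ADAM15, a membrane metalloprotease with an integrin-binding domain, ends 1.0 kb before EFNA4. It had a log2 signal of 8.77 and 8.72 in control clones 3 and 4, of 7.54 and 7.19 in control clones 8 and 9, and of 6.31, 7.32, 7.13 and 6.82 in HIST1H1A clones 2, 8, 9 and 10. Control clones 3 and 4 were thus high in ADAM15 as in EFNA3, and control clone 9 lay below HIST1H1A clone 8. Its log2 fold change of -1.16, with a 95% interval of -2.06 to -0.26, did not pass (adjusted p = 0.17 from limma, exact permutation p = 0.0571). DPM3, a subunit of dolichol-phosphate mannose synthase 5.0 kb after EFNA1, had a log2 fold change of 0.31 (adjusted p = 0.769 from limma). Of the 26 neighbours, 11 (42.3%) had both control clones 3 and 4 above clones 8 and 9, against 28.3% of named clusters and 23.4% of all. Both were below clones 8 and 9 in 3 neighbours (11.5%), against 10.2% of named clusters and 12.2% of all.

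PMVK, an enzyme of the mevalonate pathway 121.1 kb before EFNA4, fell 1.73-fold (adjusted p = 0.0453 from limma). PBXIP1, which binds PBX homeodomain proteins, rose 1.5-fold (adjusted p = 0.0374 from limma), and HCN3, a pacemaker-type cation channel, rose 1.63-fold (adjusted p = 0.0210 from limma). Each of these 3 calls was lost without some single clone. For PMVK this was any clone other than control clone 9, for PBXIP1 any other than control clone 8 and HIST1H1A clone 8, and for HCN3 control clone 4 or HIST1H1A clone 8, 9 or 10, with adjusted p up to 0.136, 0.119 and 0.0739 from limma.

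**Figure D3:**
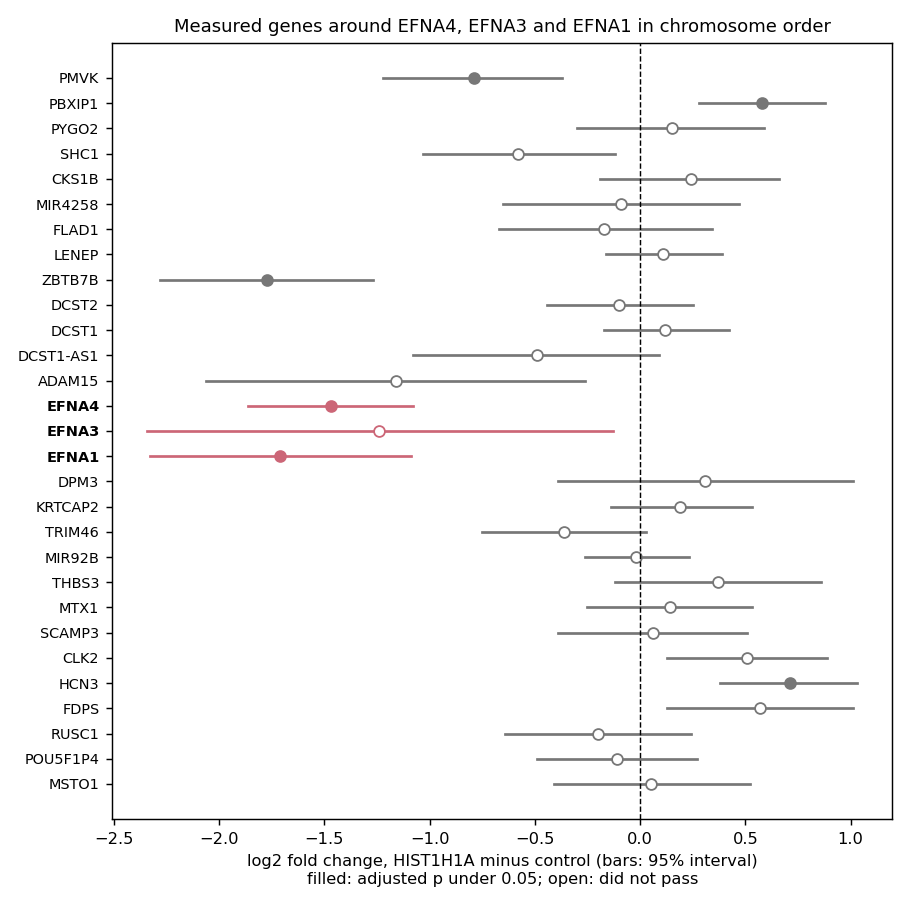
Log2 fold change with 95% intervals (horizontal axis) of the 26 measured genes within 500 kb and of EFNA4, EFNA3 and EFNA1, in chromosome order from top to bottom, with filled points for an adjusted p under 0.05. ZBTB7B at -1.77, EFNA4 at -1.47 and EFNA1 at -1.71 fell, and the genes on either side scatter about a median of 0.06.

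**Figure D4:**
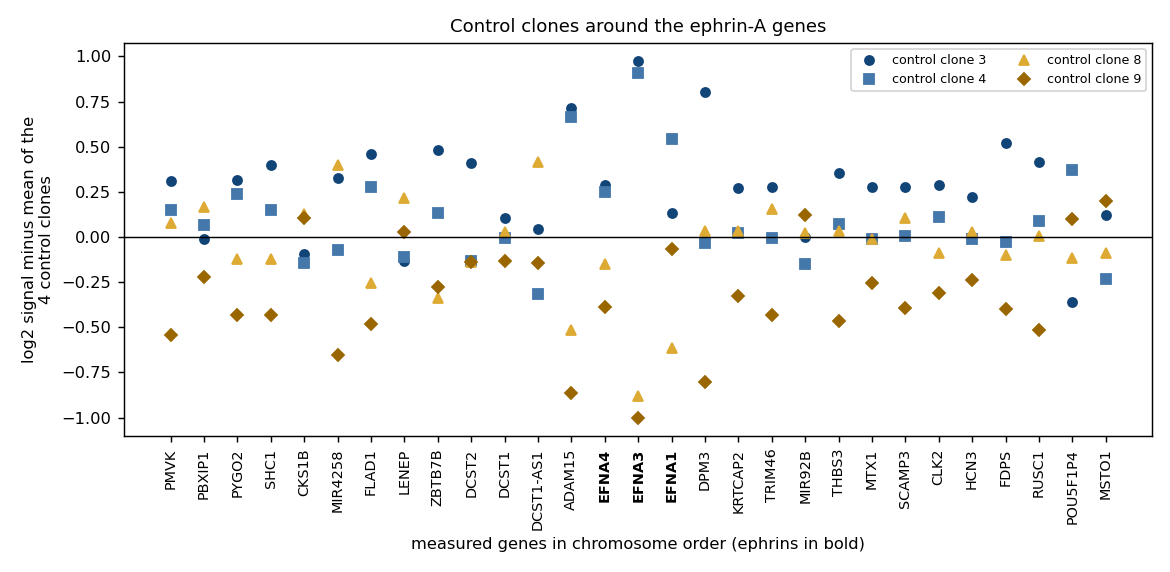
Log2 signal of each control clone minus the mean of the 4 control clones (vertical axis) for the same genes in the same order from left to right, with 1 symbol for each clone. ADAM15 and EFNA3 show clones 3 and 4 farthest above clones 8 and 9, with differences of the pair means of 1.38 and 1.88.

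Around the other 4 genes the windows of 500 kb differed, where 8.45% of named clusters rose and 3.72% fell. Near EFNB2 4 genes were measured and 0 passed (limma), with log2 fold changes from -0.17 to 0.86. Near EPHA2 2 of 13 rose and 0 fell, near EPHA8 2 of 7 rose and 0 fell, and near EPHA10 1 of 13 rose and 2 fell. The 7 near EPHA8 had log2 fold changes from 0.01 to 0.73.

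Among other genes of Eph and ephrin signaling, 4 rose and 1 fell of the 19 that were measured, from a list of 97 genes. The 26.3% that passed compare with 12.2% of named clusters, and the median log2 fold change was 0.20. The list was written with earlier results of these data known. The other 15 ephrin and Eph receptor genes on it were not analysed here. SHC1 and ADAM15 are counted both on this list and among the 1q22 neighbours. Among kinases and phosphatases both measured genes rose, of 18 listed. INPPL1, which encodes the lipid phosphatase SHIP2 that binds EPHA2, had a log2 signal of 6.39, 6.36, 5.90 and 6.31 in control clones 3, 4, 8 and 9, and of 7.59, 7.97, 7.91 and 7.59 in HIST1H1A clones 2, 8, 9 and 10. The groups stood 1.19 apart, and it rose 2.87-fold (95% interval of the log2 fold change 1.17 to 1.88, adjusted p = 0.000731 from limma).

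ABL2, a tyrosine kinase that acts on actin and signals below Eph receptors, had a log2 signal of 5.13, 5.39, 4.94 and 5.65 in control clones 3, 4, 8 and 9, and of 6.68, 6.10, 6.57 and 6.57 in HIST1H1A clones 2, 8, 9 and 10. Again no clone of one group lay within the other, and it rose 2.30-fold (adjusted p = 0.00687 from limma). The calls of INPPL1 and ABL2 held in all 15 settings.

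Of 3 measured adaptors, GRIP1, whose PDZ domains bind the tail of ephrin-B ligands, rose from 3.12 ± 0.13 to 3.69 ± 0.11 (SD, n = 4 each; 1.49-fold, adjusted p = 0.0209 from limma). Its control mean lay below 3.27, so this too rests on low signals. SHC1, an adaptor of receptor tyrosine kinases, had a log2 fold change of -0.58 (adjusted p = 0.177 from limma). Of 6 measured GTPases and their regulators, among them HRAS, VAV3 and ARHGEF16, 0 passed (limma), with log2 fold changes from -0.44 to 0.24. Of 2 measured cytoskeletal effectors, EPS8, which caps actin filaments, rose 1.89-fold (adjusted p = 0.0407 from limma), and cofilin 1, CFL1, had a log2 fold change of -0.12.

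Of 6 measured genes of proteases that cut ephrins or Eph receptors, PSEN2 fell 1.63-fold (adjusted p = 0.0496 from limma). It encodes presenilin 2, a catalytic subunit of γ-secretase. The γ-secretase subunits NCSTN and APH1A missed the threshold, at log2 fold changes of 0.45 and 0.47 (adjusted p = 0.238 and 0.341 from limma). ADAM12 and MMP14 had 0.04 and 0.21, and ADAM15, described above, had -1.16 (adjusted p = 0.17 from limma). The calls of 3 of these genes were lost without some single clone, with adjusted p up to 0.121 for EPS8, 0.0732 for GRIP1 and 0.148 for PSEN2 (limma). For EPS8 this was control clone 3, 4 or 8 or HIST1H1A clone 2, 9 or 10, for GRIP1 control clone 3 or 4 or HIST1H1A clone 2 or 10, and for PSEN2 any clone but control clone 8.

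**Figure D5:**
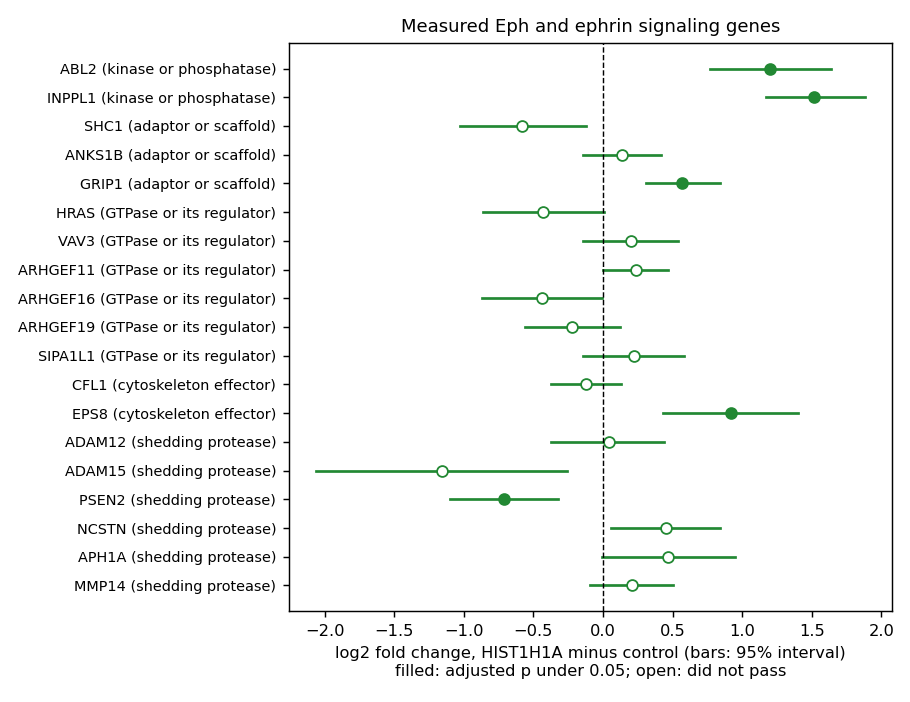
Log2 fold change with 95% intervals (horizontal axis) of the 19 measured genes of Eph and ephrin signaling, ordered by role, with filled points for an adjusted p under 0.05. INPPL1 at 1.52 and ABL2 at 1.2 are the largest of the 4 rises, and PSEN2 at -0.71 is the 1 fall.

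The genes whose pattern over the 8 arrays was most like that of the falling ligands were found by the root mean square difference of centred log2 signals, among 4240 named clusters. Since both ligands separate the groups, so must genes close to them, and the likeness is a description. Nearest to EFNA1 were TXNIP, an inhibitor of thioredoxin, at 0.245, KRT8, a keratin of simple epithelia, at 0.292, and KDF1, a keratinocyte differentiation factor, at 0.295. Nearest to EFNA4 were OAZ3, an antizyme of polyamine synthesis known from testis, at 0.118, the tetraspanin TSPAN15, a partner of the protease ADAM10, at 0.164, and the zinc finger gene ZNF672 at 0.201. These 6 genes fell by between 1.31 and 2.15 on the log2 scale (adjusted p from 0.0007 to 0.0157 from limma). TXNIP did not pass without HIST1H1A clone 9 (adjusted p = 0.0505 from limma) or by the methods' t-test (adjusted p = 0.0789).

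Several cell type markers moved with the groups as well. Of 14 luminal prostate markers 5 were measured and all 5 fell, FOLH1, EHF, CREB3L4, KRT8 and KRT18, with a summed signal of 10.15 to 10.82 in control and 7.26 to 7.40 in HIST1H1A clones on the log2 scale. Other defining markers of the line were not analysed here, nor was HIST1H1A itself, so it could not serve as a check of the labels. Of 6 mesenchymal markers the 2 measured, VIM and ZEB1, rose (summed log2 signal 4.88 to 5.26 against 7.45 to 7.54). Of 6 neuroendocrine markers 2 were measured. NCAM1 rose 2.57-fold (adjusted p = 0.0116 from limma). SRRM4 did not pass, at a log2 fold change of -0.08 (adjusted p = 0.894 from limma). The summed log2 signal of NCAM1 and SRRM4 was 4.42 to 5.20 in control and 5.41 to 5.96 in HIST1H1A clones. KRT5, the measured 1 of 3 basal markers, was low in both groups, at 2.44 to 3.00 and 2.52 to 2.65. The part of these shifts in the ephrin values was not tested. Each group is a set of clones with 1 array each, so clonal and technical spread cannot be told apart, and their number limits the precision.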

How the data were processed

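The values are log2 signals per transcript cluster, which the authors deposited from Affymetrix Human Gene 2.0 ST arrays of 8 LNCaP clones, made with Partek. The version, summarization, normalization and annotation build were not given in the sources used here. Array medians lay between 3.25 and 3.30, and no further normalization was applied. Scanner intensities were not used here. Symbols came from the platform annotation, with 4247 clusters carrying 1 symbol and 12130 unnamed here. Strand was not checked. The brightest cluster stood for a gene.

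Groups came from the sample labels. They were compared with limma 3.58.1 (lmFit, eBayes) in R 4.3.3 on all 16377 clusters, with Benjamini-Hochberg adjustment and no covariates, and the code was tested on simulated data. Single values and ligand pairs were tested by exact permutation, two-sided. The 7 genes, the gene lists and the tests were chosen with earlier results of these data known. Genes were named by rule, which took all 7 members, up to 4 rises and 4 falls by fold among pathway genes and among neighbours, and the 3 genes nearest in pattern to each member that passed. The other neighbours and pathway genes given with values were chosen for position or role after the values were seen. Neighbours and promoter sequences came from RefSeq tables of GRCh38.p14. Alternatives were quantile normalization, median centring, limma's trend and robust options and Student's t-test. Others were brighter clusters only (mean above 3.27), named clusters only, a test against a fold of 2 and other windows. Each clone was also left out in turn, and clones 8 and 9 were taken alone with and without a block. The mean over a gene's clusters and, chosen after seeing the data, array weights were tried as well. Some genes are not reported here.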

Additional observations from a re-analysis of the deposited data

Results flagged for a closer look

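In 44 groups of 4 clones, 5 had a clone set apart from the other 3 by Dixon's criterion, where chance gives about 1 in 20 groups, or 2.2. EFNB2 in HIST1H1A clone 10 had a log2 signal of 8.86, with the next clone at 8.62. EPHA10 in HIST1H1A clone 10 had 3.00, with the next clone at 2.82. INPPL1 in control clone 8 had 5.90, below the next clone at 6.31. TXNIP in control clone 4 had 8.84, above the next at 7.75. ZNF672 in control clone 9 had 6.10, below the next at 6.74.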

How the results depend on the processing

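Of the 7 ephrin and Eph receptor genes, 2 fell and 0 rose. The falls were 2 in the settings that kept at least 7 arrays and tested against no change, except for 3 with array weights, and were 0 in limma's test against a fold of 2 and in clones 8 and 9 alone. With EFNB2, 1 rose among brighter clusters only, among named clusters only and with array weights, the last chosen after seeing the data, and 0 to 1 rose without single clones. Array weights also brought EFNA3 past the threshold (adjusted p = 0.0419 from limma). Clusters changed over 2-fold were 392 upward and 226 downward. They were 256 and 132 among named clusters only and 73 and 45 against a fold of 2. Without single clones they were 319 to 441 and 161 to 252, and Student's t-test gave 127 downward. Without the fold minimum 617 rose. Of the pathway genes 4 rose and 1 fell. Without single clones 2 to 4 rose and 0 to 1 fell, and against a fold of 2 it was 0 and 0. The fall was 0 under Student's t-test and under limma with trend and robust settings, and 2 fell with array weights. Of the 1q22 neighbours 2 rose and 2 fell. Both counts were 1 under Student's t-test, the trend and robust settings and quantile normalization, and 0 against a fold of 2. Without single clones there were 0 to 2 rises and 1 to 2 falls. A window of 1000 kb held 46 measured genes instead of 26 and gave 4 rises and 3 falls, or 15.2% that passed against 15.4%. Student's t-test ended the calls of EPS8, PSEN2, PBXIP1, PMVK and TXNIP, and the trend and robust settings those of the first 4. The differences between ligand pairs without single clones were -0.75 to -0.16 for EFNA1 minus EFNA3, -0.46 to 0.01 for EFNA4 minus EFNA3, which changed sign without control clone 8, and -0.39 to -0.07 for EFNA1 minus EFNA4. Quantile normalization moved the median log2 fold change of all clusters by 0.008 and median centring by -0.003. The cause of these changes was not tested, except that clones 8 and 9 alone leave 4 arrays.

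The groups share the clone numbers 8 and 9, given to separately isolated clones. How far same-numbered clones departed from their group means correlated at 0.07 for 8 and -0.22 for 9. The labels give only the number, and whether these clones shared a batch was not tested. With these 4 arrays and the number as a replicate block, 0 clusters changed upward and 0 downward, and 46 and 29 did without the block. In both fits 0 of the 7 genes, 0 pathway genes and 0 neighbours passed, rising or falling. Signals near 3.27, such as those of EPHA10 and GRIP1, limit what could be measured, since no background level was used.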

Other observations

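Within 500 kb of EPHA10, FHL3, a LIM-domain protein of muscle, rose 5.55-fold (adjusted p = 0.00169 from limma), and ZC3H12A, an RNase that degrades inflammatory transcripts, fell 1.94-fold. The long non-coding RNA gene LITATS1 in the same window fell 2.43-fold. Near EPHA2 the genes that rose were SPEN-AS1 and NECAP2, and near EPHA8 they were KDM1A, a histone demethylase, and LUZP1. These genes were chosen after their values were seen.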
